A study of Homo sapiens with 6 samples.

Results

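Cytarabine and an anthracycline are the backbone of induction chemotherapy for acute myeloid leukemia (AML), and 10 genes that move or metabolise these drugs were read out here across 3 AML cell lines. The genes were chosen by symbol for their known roles, with earlier results of these data known. All 10 were found among the 34114 genes of the deposited table. They are the efflux pumps ABCB1, ABCC1, ABCC4 and ABCG2, the vault protein gene MVP, the uptake carrier SLC29A1, the activating kinase gene DCK, and the genes CDA, NT5C2 and SAMHD1, whose enzymes remove the drug or its active forms. MOLM-14, NOMO-1 and SKM-1 are established human AML lines, and each was profiled by RNA-seq at 72 h after transfection with a scrambled control shRNA or with an shRNA against NCAM1 (CD56), the neural cell adhesion molecule that the series title links to leukemogenesis and drug resistance. Each line gave 1 control and 1 knockdown library, so the 3 lines are the replicates of the knockdown comparison and no line has a replicate of its own. The labels name no cytarabine or anthracycline exposure, so the values are levels in cells not labelled as drug-treated. The knockdown column headers carry the tag sh59 for MOLM-14 and NOMO-1 and sh59a for SKM-1, and the sources used here do not say whether all lines received 1 hairpin. Levels are the authors' normalized read counts, and in such bulk samples fewer cells of a type and less RNA per cell cannot be told apart.

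Cytarabine is a cytidine analogue. It enters blasts through the equilibrative nucleoside transporter ENT1, encoded by SLC29A1, and deoxycytidine kinase, encoded by DCK, adds its first phosphate, after which further kinases build the active triphosphate that stalls DNA synthesis. Cytidine deaminase (CDA) inactivates the drug, the cytosolic nucleotidase NT5C2 can remove phosphate from nucleotides, and the triphosphohydrolase SAMHD1 hydrolyses the active triphosphate. Anthracyclines poison topoisomerase II and are exported by ATP-binding cassette (ABC) pumps such as P-glycoprotein, the product of ABCB1, while MVP encodes the major vault protein, long known as the lung resistance-related protein.

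Promoter sequences are shown for 4 of the genes because their levels behaved least alike: CDA and MVP varied widely over the libraries, SAMHD1 had its highest level in the NOMO-1 knockdown library, and DCK had the narrowest range of the 10. Each is the 250 bases upstream of a RefSeq start site in GRCh38.p14, written 5′ to 3′ on the gene's strand, with matches to 7 searched motifs in capitals. The locations are chr1:20588847-20589096 on the plus strand for CDA, chr16:29820144-29820393 on the plus strand for MVP (window 1 of its 3), chr20:36951709-36951958 on the minus strand for SAMHD1, and chr4:70993399-70993648 on the plus strand for DCK.
CDA: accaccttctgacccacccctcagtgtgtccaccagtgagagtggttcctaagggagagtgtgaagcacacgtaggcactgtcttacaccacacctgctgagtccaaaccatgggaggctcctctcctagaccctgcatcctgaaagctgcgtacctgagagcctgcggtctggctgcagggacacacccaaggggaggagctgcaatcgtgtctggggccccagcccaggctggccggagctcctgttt
MVP: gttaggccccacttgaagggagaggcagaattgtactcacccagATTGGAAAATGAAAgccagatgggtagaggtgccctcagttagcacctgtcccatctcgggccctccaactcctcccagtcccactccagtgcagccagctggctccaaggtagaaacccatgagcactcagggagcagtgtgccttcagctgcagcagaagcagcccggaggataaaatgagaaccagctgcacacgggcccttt
SAMHD1: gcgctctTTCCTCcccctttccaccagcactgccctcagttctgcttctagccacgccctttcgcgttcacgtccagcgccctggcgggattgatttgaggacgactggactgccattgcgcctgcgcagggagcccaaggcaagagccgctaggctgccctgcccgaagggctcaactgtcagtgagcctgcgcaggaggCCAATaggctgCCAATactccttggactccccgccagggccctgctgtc
DCK: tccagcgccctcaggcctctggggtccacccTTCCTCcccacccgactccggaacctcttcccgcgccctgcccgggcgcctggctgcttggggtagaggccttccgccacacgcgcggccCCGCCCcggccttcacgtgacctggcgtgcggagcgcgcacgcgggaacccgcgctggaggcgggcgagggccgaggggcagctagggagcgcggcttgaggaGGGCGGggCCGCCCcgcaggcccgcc

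The CDA window held none of the 7 motifs at 60.4% GC, against a median of 58% over all 35116 RefSeq windows. The DCK window, at 78% GC, held 3 GC boxes (GGGCGG or its reverse complement, bound by Sp1 family proteins) and 1 match to the PU.1 core GAGGAA. The SAMHD1 window, at 64% GC, held 2 CCAAT boxes (the NF-Y motif) and 1 PU.1 core. The MVP window, at 56.8% GC, held 1 CCAAT box and 1 interferon response match (GAAA, any 2 bases, GAAA), and these matches share 1 base. Of the 10 genes 9 had at least 1 window, ABCC1 being the one without. On both strands, in any window of a gene, GGGCGG occurred for 4 of these 9, GAGGAA for 4, CCAAT for 3, TGANTCA (AP-1) for 1, the interferon response motif for 1, and TATAAA and TTGCNNAA (C/EBP) for 0. Among all windows of that length the shares were 42.6% for GGGCGG, 23.6% for GAGGAA, 32.0% for CCAAT, 6.57% for TGANTCA, 3.02% for the interferon response motif, 10.7% for TATAAA and 9.05% for TTGCNNAA. A match describes letters only. The shares count single windows, whereas several of the 9 genes have more than 1 window and so more chances of a match.

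Depth was even, at 41916991 to 47688779 reads per library. The target itself was lower in every knockdown library: NCAM1 went from 6004 to 1896 normalized counts in MOLM-14, from 1163 to 312 in NOMO-1 and from 12537 to 101 in SKM-1. That is 3.17-fold, 3.73-fold and 124-fold lower, so SKM-1 had by far the deepest loss of NCAM1 RNA. All 7 myeloid leukemia markers listed (CD33, ANPEP, MPO, PTPRC, SPI1, CEBPA and LYZ) had reads in all 6 libraries, ANPEP at only 4.46 in the MOLM-14 control, while HBB, the 1 erythroid marker found, was at 0 in MOLM-14 and NOMO-1 and at 3.05 or less in SKM-1. Markers of other cell types were not absent. The 5 T and NK cell genes summed to 733 to 5225 over the libraries, led by CD3D in NOMO-1 (3789 and 2961) and by NKG7 elsewhere, while CD8A and KLRD1 were at 1 read or less in NOMO-1. Of the B cell genes, PAX5 stood at 1194 and 1032 in MOLM-14 and MS4A1 at 1988 in the NOMO-1 knockdown against 144 in its control. The 4 epithelial and stromal genes found summed to 33.8 to 1300.1, led by EPCAM in SKM-1 (549 and 1203). Their part in the results was not tested. The SKM-1 knockdown library also differed most from its control: 32.2% of the 19575 genes tested (mean normalized count of at least 10) differed at least 2-fold there, against 7.58% in MOLM-14 and 11.5% in NOMO-1.

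Over the 3 lines, none of the 10 genes passed the test for a shared difference between knockdown and control. The limma fit with the cell line as a block called 0 of the 9 that passed the filter on low values (ABCB1 did not pass it), against 0% of all genes called, and at an unadjusted p under 0.05 it gave 0 of 9 against 4.48%. DESeq2 called 0 of 9 against 0.22% and gave 1 of 9 (MVP) at an unadjusted p under 0.05 against 5.63%, while edgeR gave 0 of 9 at either level. The target NCAM1, lower in every line with a mean log2 change of -3.50, was not called either. Its adjusted p was 0.779 by limma, 0.824 by edgeR and 0.107 by DESeq2, so a missing call does not show that a gene was unchanged. Control and knockdown levels overlapped for all 10 genes, and among the genes tested 4.53% did not overlap. MVP was higher in all 3 knockdown libraries and ABCC1 lower in all 3. Over all genes tested 14.6% were higher in all 3 lines and 15.9% lower, 30.6% in all, so 1 in each direction among 9 is near the background. The median log2 change of the 9 was -0.069, beside -0.0072 for all genes tested. The smallest p that an exact two-sided sign-flip test over 3 lines allows is 0.25, which cannot pass 0.05.

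**Figure D1:**
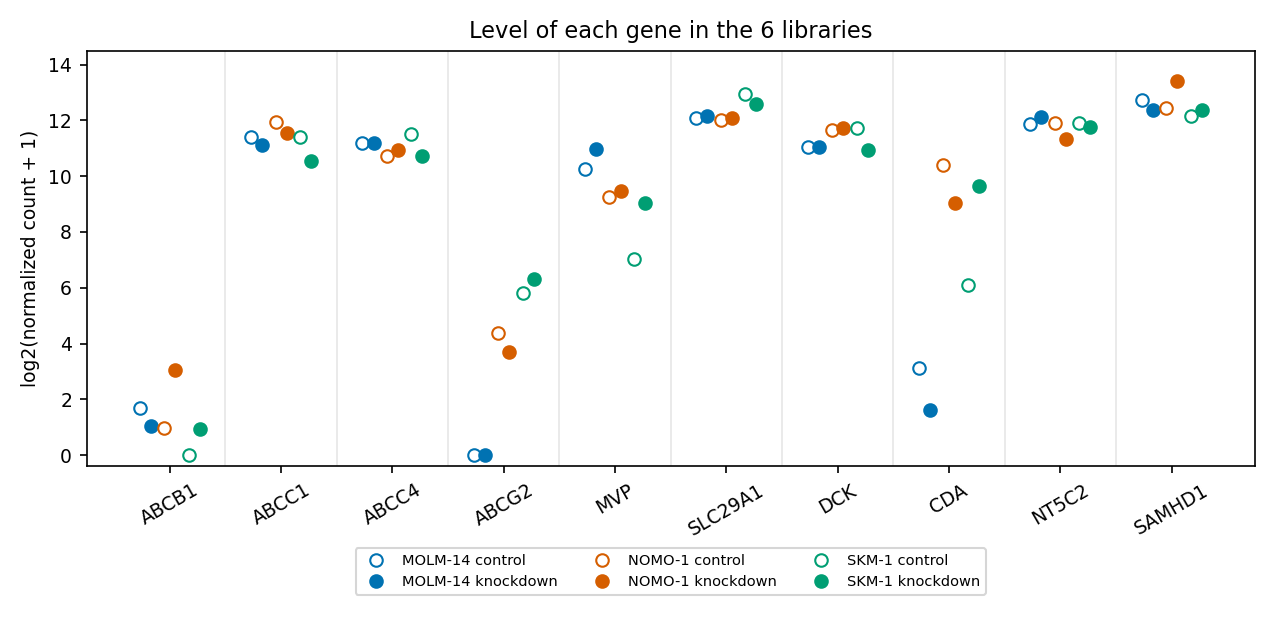
Level of each of the 10 genes in the 6 libraries, as log2(normalized count + 1) on the vertical axis, with open circles for control and filled circles for knockdown libraries and 1 colour per line. ABCC1, ABCC4, SLC29A1, DCK, NT5C2 and SAMHD1 lie high in all 6 libraries, ABCB1 lies low throughout, and CDA spreads over 8.79 log2 units.

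Compared per kilobase of exon, the uptake and cytarabine-metabolism genes led. The mean normalized count per kilobase was 1186 for SLC29A1, 833 for DCK, 708 for NT5C2, 571 for SAMHD1 and 479 for CDA, followed by 355 for ABCC1, 250.1 for ABCC4, 141 for MVP, 5.44 for ABCG2 and 0.357 for ABCB1. Ranges over the libraries overlapped between neighbours in that order, except between MVP and ABCG2. SLC29A1 ran from 936 to 1771 per kilobase and DCK from 610 to 1039, so the top of the order is not separated beyond the spread over libraries. CDA had no fixed place at all, from 2.17 per kilobase in the MOLM-14 knockdown library to 1416 in the NOMO-1 control, where it stood first of the 10. ABCG2 and ABCB1 held the last 2 places in every library. The lengths are summed exons of GENCODE v29, which may not match the annotation the authors counted on.

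Of the 4 efflux pumps, ABCC1 and ABCC4 were abundant and ABCG2 and ABCB1 were read at low levels or not at all. ABCB1, the classical multidrug resistance pump, was read at 2.23 normalized counts in the MOLM-14 control and 1.04 in its knockdown, 0.945 and 7.30 in NOMO-1, and 0 and 0.918 in SKM-1. These values stand for 2, 1, 1, 8, 0 and 1 reads, so the pump was hardly detected in any library. The NOMO-1 ratio was 7.73-fold higher with a 95% counting interval of 1.04 to 343, and in the other lines both libraries were at or under the floor of 3 reads. Fitted without the filter, ABCB1 gave a log2 change of 0.79 with an adjusted p of 0.776 by limma. Here and below, intervals and floors cover counting error only.

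ABCC1, which encodes the multidrug resistance-associated protein MRP1, an anthracycline and glutathione-conjugate exporter, was the gene lower in every line. It went from 2696 to 2230 in MOLM-14, from 3939 to 3012 in NOMO-1 and from 2744 to 1502 in SKM-1. Each knockdown library was below its own control, but the NOMO-1 knockdown still lay above the controls of both other lines, so the groups overlap. The ratio was 1.21-fold lower (95% counting interval 1.14 to 1.28) in MOLM-14, 1.31-fold lower (1.25 to 1.37) in NOMO-1 and 1.83-fold lower (1.72 to 1.94) in SKM-1. The mean log2 change was -0.51 ± 0.32 (SD over 3 lines; SE 0.20) with an unadjusted p of 0.0522 and an adjusted p of 0.779 by limma. With the SKM-1 pair left out, the mean was -0.33.

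ABCC4 encodes MRP4, an exporter of nucleotides and nucleotide analogues. Its level was 2331 and 2361 in MOLM-14 control and knockdown, 1696 and 1959 in NOMO-1, and 2933 and 1678 in SKM-1. The MOLM-14 libraries did not differ beyond counting error (1.01-fold, 0.954 to 1.08), NOMO-1 was 1.15-fold higher (1.08 to 1.23) and SKM-1 was 1.75-fold lower (1.65 to 1.85). The mean log2 change was -0.19 ± 0.54 with an adjusted p of 0.842.

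ABCG2, the breast cancer resistance protein pump, had a different level in each line. It had no reads in either MOLM-14 library, 19.8 and 11.9 normalized counts in NOMO-1 and 54.9 and 78.0 in SKM-1. These are 21 and 13 reads in NOMO-1 and 54 and 85 in SKM-1, so even its highest level is low. Neither within-line ratio left counting error: the NOMO-1 ratio was 0.598 (0.275 to 1.25) and the SKM-1 ratio 1.42 (0.9996 to 2.04). The adjusted p over the 3 lines was 0.972.

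MVP is the main structural protein of vaults, large ribonucleoprotein particles of the cytoplasm. It was the gene higher in every knockdown library, with 1214 and 1996 in MOLM-14, 610 and 706 in NOMO-1, and 129 and 529 in SKM-1. The SKM-1 control was the lowest of the 6 libraries and the MOLM-14 knockdown the highest, and the SKM-1 knockdown stayed below both NOMO-1 libraries. The ratio was 1.64-fold (1.52 to 1.77) in MOLM-14, 1.16-fold (1.04 to 1.29) in NOMO-1 and 4.10-fold (3.38 to 5.01) in SKM-1. The mean log2 change was 0.98 ± 0.94 (SE 0.40), with an unadjusted p of 0.0590 and an adjusted p of 0.779 by limma. With the SKM-1 pair left out, the mean was 0.46.

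SLC29A1, the entry route of cytarabine, was high everywhere. Its level was 4384 and 4585 in MOLM-14, 4126 and 4380 in NOMO-1 and 7808 and 6095 in SKM-1. Both SKM-1 libraries lay above all others. MOLM-14 was 1.05-fold higher (1.00 to 1.09) after knockdown, NOMO-1 1.06-fold higher (1.02 to 1.11) and SKM-1 1.28-fold lower (1.24 to 1.32), with a mean log2 change of -0.069 ± 0.25 and an adjusted p of 0.919.

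DCK, the rate-limiting kinase of cytarabine activation, was nearly flat in MOLM-14 and NOMO-1. It measured 2119 and 2101 in MOLM-14, 3239 and 3353 in NOMO-1, and 3354 and 1968 in SKM-1. Ratios held 1 within counting error in MOLM-14 (0.992, 0.931 to 1.06) and NOMO-1 (1.04, 0.988 to 1.08), while SKM-1 was 1.70-fold lower (1.61 to 1.801) and went from a level like that of NOMO-1 to the lowest of the 6 libraries. The mean log2 change was -0.24 ± 0.46 with an adjusted p of 0.796, and 0.019 with the SKM-1 pair left out.

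CDA, the deaminase that turns cytarabine into an inactive uridine analogue, gave the widest differences of the 10. It measured 7.81 and 2.09 in MOLM-14, 1364 and 520 in NOMO-1, and 68.1 and 805 in SKM-1. MOLM-14 was almost without CDA RNA (7 and 2 reads), and the high library was the control in NOMO-1 but the knockdown in SKM-1. The ratio was 2.62-fold lower (2.38 to 2.90) in NOMO-1 and 11.8-fold higher (9.22 to 15.4) in SKM-1, and in MOLM-14 the 3.74-fold lower value had an interval of 0.712 to 36.9. With lines moving in opposite directions, the mean log2 change was 0.21 ± 2.88 and the adjusted p 0.961. With the SKM-1 pair left out, the mean was -1.45.

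NT5C2, whose product dephosphorylates purine and analogue monophosphates, had nearly equal control levels in the 3 lines. It measured 3726 and 4445 in MOLM-14, 3886 and 2560 in NOMO-1, and 3853 and 3442 in SKM-1. The highest and lowest libraries were both knockdowns. MOLM-14 was 1.19-fold higher (1.14 to 1.25), NOMO-1 1.52-fold lower (1.45 to 1.59) and SKM-1 1.119-fold lower (1.07 to 1.17), with a mean log2 change of -0.17 ± 0.43 and an adjusted p of 0.838.

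SAMHD1, the hydrolase that clears cytarabine triphosphate, was highest after knockdown in NOMO-1. It measured 6886 and 5287 in MOLM-14, 5569 and 10970 in NOMO-1, and 4523 and 5355 in SKM-1. The NOMO-1 knockdown library stood above the other 5, which lay between 4523 and 6886. MOLM-14 was 1.30-fold lower (1.25 to 1.35), NOMO-1 1.97-fold higher (1.91 to 2.03) and SKM-1 1.18-fold higher (1.14 to 1.23), with a mean log2 change of 0.28 ± 0.68 and an adjusted p of 0.807.

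**Figure D2:**
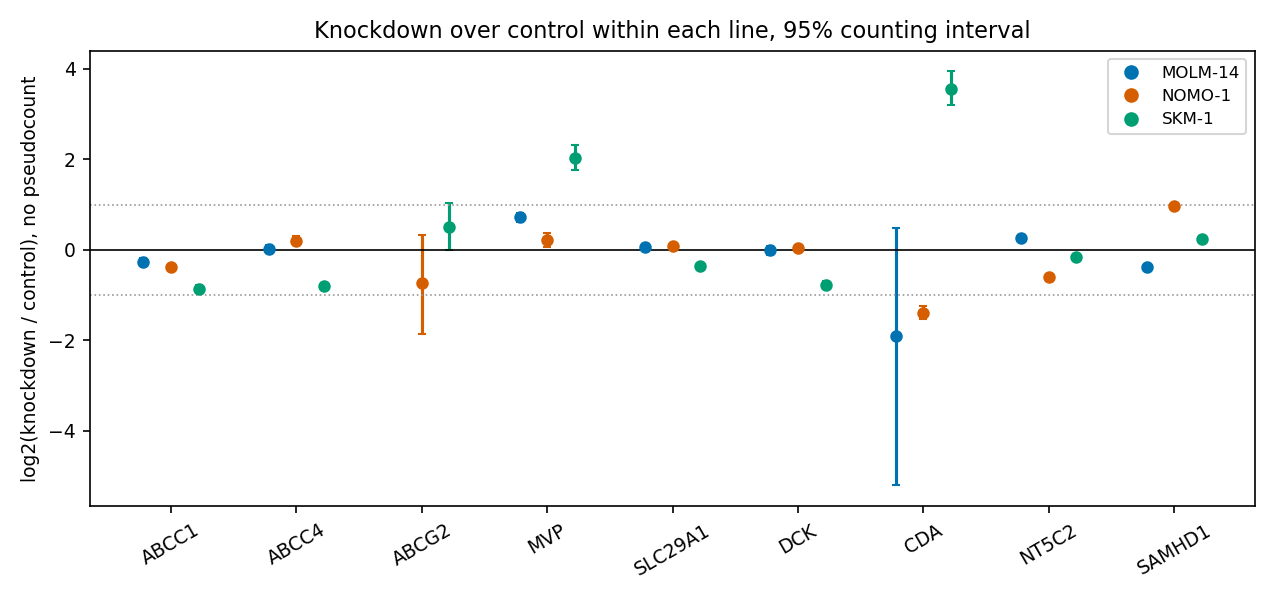
Knockdown over control ratio of the 9 genes tested, as log2 of the ratio of normalized counts with 95% counting intervals, 1 point per line (ABCG2 has none in MOLM-14, where it had no reads), with dotted lines at a 2-fold difference. CDA lies far above 0 in SKM-1 and below 0 in NOMO-1, MVP lies above 0 in all 3 lines and ABCC1 below 0 in all 3.

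Within single lines most of the genes stayed inside a 2-fold difference. In MOLM-14 1 of 9 passed 2-fold on the log2(normalized count + 1) scale, CDA downward, against 7.58% of all genes tested and 4.03% downward. In NOMO-1 it was again 1 of 9, CDA downward, against 11.5% and 7.42% downward, and in SKM-1 2 of 9, CDA and MVP upward, against 32.2% in either direction and 15.7% upward. None of these shares can be tested, since each line has 1 library per condition. The MOLM-14 difference of CDA rested on 7 and 2 reads, and its counting interval held 1. Counting intervals lay above 1 for 3, below 1 for 2 and across 1 for 3 of the genes in MOLM-14 (ABCG2 had no ratio), for 4, 3 and 2 in NOMO-1, and for 3, 5 and 1 in SKM-1. Of all genes tested, intervals lay above 1 for 19.6% and below 1 for 20.9% in MOLM-14, for 29.7% and 31.4% in NOMO-1, and for 34.9% and 37.7% in SKM-1. For 5 of the 9 (ABCC4, SLC29A1, CDA, NT5C2 and SAMHD1) the interval lay above 1 in one line and below 1 in another, against 30.7% of all genes tested. Such intervals narrow with the number of reads, so that a ratio as small as 1.05 for SLC29A1 in MOLM-14 clears 1, and the counts were not tested against those of other genes. The 3 removal genes did not share a direction in any line: SKM-1 knockdown had more CDA and SAMHD1 but less NT5C2, NOMO-1 had more SAMHD1 but less CDA and NT5C2, and MOLM-14 had more NT5C2, less SAMHD1 and hardly any CDA.

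In SKM-1, monocyte markers were higher in the same library as CDA and MVP. Of 11 genes listed as monocyte or macrophage markers 10 were found, and their summed level was 10046 and 6204 normalized counts in MOLM-14 control and knockdown, 21374 and 22154 in NOMO-1, and 9316 and 38022 in SKM-1. In SKM-1 knockdown 5 of the 7 markers tested were higher and 4 of them at least 2-fold. Of all genes tested 15.7% were at least 2-fold higher there. The median log2 ratio of the markers was 1.55 in SKM-1, -1.01 in MOLM-14 and -0.60 in NOMO-1. For all genes tested it was -0.012, 0 and -0.0003 in the same order. In SKM-1 ITGAM (CD11b) went from 1757 to 20862, lysozyme (LYZ) from 2455 to 7205 and FCN1 from 1045 to 5936. CD14 stayed low there at 3.05 and 11.02, and FCGR1A was lower, 2673 against 1667. FCN1 was at 1.115 and 0 in the MOLM-14 libraries. MPO, the granule enzyme of immature myeloid cells, went from 728824 to 6166 in SKM-1. Of the 7 markers tested, 1 was higher after knockdown in MOLM-14 and 2 in NOMO-1. CDA was lower in both of these lines, in MOLM-14 on 7 and 2 reads, while MVP was higher in both. In NOMO-1, where CDA was 2.62-fold lower, the marker sum was nearly equal, with LYZ higher (9581 to 14103) and ITGAM lower (10102 to 7007). In MOLM-14, where MVP was 1.64-fold higher, the sum was lower. The part of these markers in the CDA and MVP values was not tested.

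Interferon-response genes were also read, since SAMHD1 is known to respond to interferon in some cells. The 20 listed genes summed to 17670 and 23967 in MOLM-14, 10372 and 10848 in NOMO-1, and 8923 and 10577 in SKM-1, and 18, 13 and 8 of them were higher after knockdown in the respective lines. The medians of their log2 ratios were 0.59, 0.26 and -0.86, beside 0, -0.0003 and -0.012 for all genes tested. SAMHD1 was lower in MOLM-14, where 18 of the 20 were higher, and 1.97-fold higher in NOMO-1, where their summed level was close to equal. Their part in the SAMHD1 values was not tested.

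**Figure D3:**
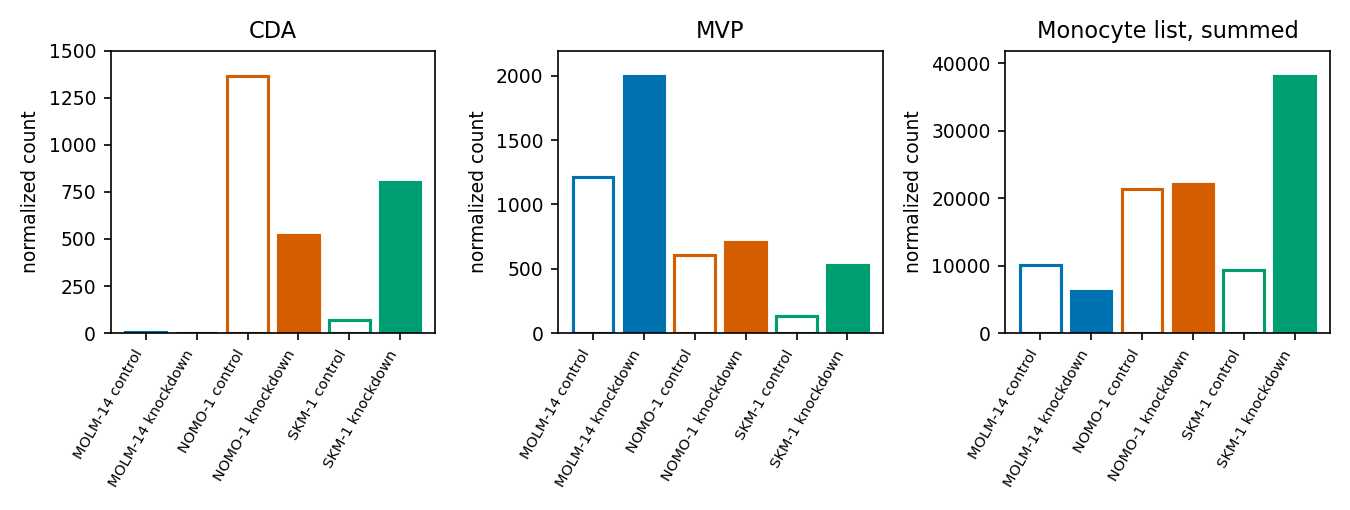
Normalized counts of CDA, of MVP and of the 10 monocyte markers summed, 1 bar per library from 0, open for control and filled for knockdown. In SKM-1 all 3 quantities are higher in the knockdown library (805 against 68.1, 529 against 129 and 38022 against 9316), while in NOMO-1 CDA is lower (520 against 1364) and the marker sum is nearly equal.

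Between lines, ABCG2, CDA and MVP were each called in at least 1 of 3 contrasts, and MOLM-14 was a party to every call. Line contrasts came from the same limma fit, with the knockdown term kept and calls at an adjusted p under 0.05 and at least 2-fold. Each line is represented by its control and knockdown libraries, which are not replicate cultures of 1 condition, and the 3 contrasts share libraries. Between MOLM-14 and NOMO-1 2 of 9 were called, both lower in MOLM-14, against 13.3% of all genes tested in either direction and 8.01% lower. CDA was lower in both MOLM-14 libraries than in both NOMO-1 libraries by 7.34 ± 1.36 (SE) on the log2 scale (adjusted p 0.0335), and ABCG2 was at least 4.89-fold higher in NOMO-1 than the floor of 3 reads per library allows for MOLM-14 (adjusted p 0.0169). Both calls were lost without any 1 of the 4 libraries of these lines, with adjusted p of 0.0533, 0.136, 0.329 and 0.206 for CDA and of 0.102, 0.101, 0.185 and 0.127 for ABCG2 (without MOLM-14 control, MOLM-14 knockdown, NOMO-1 control and NOMO-1 knockdown in turn). MVP, 1.24 higher in MOLM-14 on the log2 scale, was not called (adjusted p 0.169). With 1 library left out at a time, its difference ran from 0.66 to 1.83.

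Between SKM-1 and MOLM-14 2 of 9 were called, 1 in each direction, against 15.9% of all genes tested, 8.06% higher and 7.79% lower in SKM-1. ABCG2 was at least 20.5-fold higher in SKM-1 than the floor allows for MOLM-14. It passed the filter on low values only through its SKM-1 libraries, so it had to differ here, and its call is a description without support from the test. MVP was lower in SKM-1 by 2.57 ± 0.49 (SE) on the log2 scale (adjusted p 0.0323), a call lost without the MOLM-14 control (0.169), the MOLM-14 knockdown (0.139), the NOMO-1 control (0.0988) or the NOMO-1 knockdown (0.1003). CDA was 5.50 ± 1.36 (SE) higher in SKM-1 on the log2 scale and narrowly missed the threshold (adjusted p 0.0584). Without the SKM-1 control the CDA difference was 7.998 and without the SKM-1 knockdown 3.002. Each of these fits keeps 1 SKM-1 library, so the spread between the SKM-1 libraries is not in its error. No call is drawn from them.

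Between SKM-1 and NOMO-1 0 of 9 were called, against 13.7% of all genes tested, and 4 had an unadjusted p under 0.05. These were ABCG2, higher in SKM-1 by 2.02 on the log2 scale (adjusted p 0.0831), SLC29A1, higher by 0.70 (0.106), ABCC1, with a difference of -0.76 (0.113), and MVP, with -1.32 (0.151). ABCG2 passed the filter on low values only through its SKM-1 libraries, so its p-value here adds nothing to its levels. By edgeR and DESeq2 0 of 9 were called as well. With 1 library left out at a time, the difference ran from 1.55 to 2.49 for ABCG2 and from -1.03 to -0.49 for ABCC1. For MVP it ran from -2.11 to -0.54 and for CDA from -4.34 to 0.66. Such a fit keeps 1 library of a line, whose spread is then not in the error, so no call is drawn from it. SLC29A1, ABCC4, DCK, NT5C2 and SAMHD1 were called in none of the 3 contrasts.

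**Figure D4:**
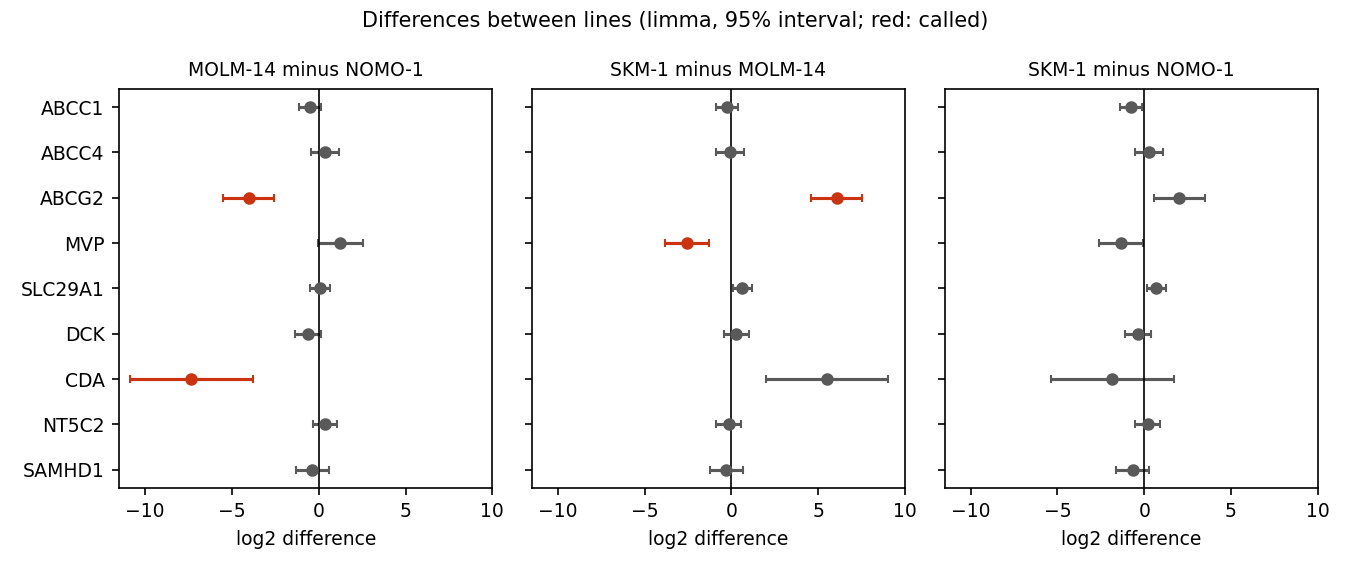
Differences between lines for the 9 genes tested, in log2 units on the horizontal axis with 95% intervals from the limma fit, 1 panel per pair of lines and called genes in red. CDA and ABCG2 are called between MOLM-14 and NOMO-1, ABCG2 and MVP between SKM-1 and MOLM-14, and none between SKM-1 and NOMO-1.

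For the 3 genes with the widest range, the genes of most similar profile over the 6 libraries were sought among 11901 genes with a mean normalized count of at least 50. Nearest to CDA were ATRNL1 and PTPRK, at root mean square distances of 0.57 and 0.66 log2 units. ATRNL1 had no reads in MOLM-14, 273 and 138 in NOMO-1 and 9.14 and 95.5 in SKM-1, so it was lower in the NOMO-1 knockdown library and higher in that of SKM-1, as CDA was. PTPRK, a receptor tyrosine phosphatase, had 6.69 and 2.09 in MOLM-14, 470.4 and 544 in NOMO-1 and 71.1 and 1228 in SKM-1, so it shares the near absence in MOLM-14 and the high SKM-1 knockdown level but not the NOMO-1 difference. ABCG2 was most like KIAA1549 (0.29) and RAB11FIP5 (0.34), and MVP most like ZNF300 (0.27) and RNF43 (0.33). Only 6 libraries of 3 lines underlie these distances, which are a description.

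Genes around the 10 in the same pathways were then counted from 6 lists of 78 genes, of which 77 were found and 71 tested. By limma, edgeR and DESeq2 0 of the 71 were called after knockdown. At an unadjusted p under 0.05 limma gave 5 of 71, or 7.04% against 4.48% of all genes tested, and the median log2 change was -0.013. In all 3 lines 13 of the 71 were higher and 11 lower, against 14.6% and 15.9% of all genes tested. These 5 genes all had an adjusted p of 0.779, and CMPK1 and NQO1 are named here after their values were seen.

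Among 10 other ABC transporters tested, 5 had a higher and 5 a lower mean. The most abundant were ABCA2, a lipid transporter of endolysosomes, with a mean log2 change of -0.64 ± 0.60, ABCC10 (MRP7) with 0.61 ± 0.67 and ABCC5 (MRP5), an exporter of nucleotide analogues, with -0.68 ± 0.51. ABCC5 was lower in all 3 knockdown libraries, 1112 against 864 in MOLM-14, 1786 against 1340 in NOMO-1 and 2953 against 1220 in SKM-1. Line calls among them included ABCA3, a lipid transporter, at 23.4 and 20.9 in MOLM-14 against 671 and 806 in NOMO-1 (adjusted p 0.00772). Also called were ABCG1, a cholesterol exporter with 445 and 57.8 in SKM-1 and at most 1 read in any library of the other lines, and ABCB11, the bile salt pump, with 305 and 175 in NOMO-1 and at most 3 reads in SKM-1. ABCG1 and ABCB11 passed the filter only through the line where they are high, so their calls add nothing to these levels.

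Of 7 other nucleoside and drug carriers tested, 2 had a higher and 5 a lower mean. SLC29A2, which encodes the second equilibrative nucleoside transporter ENT2, was lower in all 3 knockdown libraries: 2998 and 2031 in MOLM-14, 4546 and 2482 in NOMO-1, and 844 and 88.1 in SKM-1. Its mean log2 change was -1.56 ± 1.47, and SKM-1 lay below MOLM-14 by -3.17 (adjusted p 0.0457) and below NOMO-1 by -3.61 (0.0360) on the log2 scale, while SLC29A1 had its highest levels in SKM-1. SLC19A1, the reduced folate carrier, had a mean log2 change of 0.002 ± 0.41, and SLCO4A1, an organic anion carrier, one of -0.044 ± 0.45.

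Of 23 other salvage and nucleotide pool genes tested, 11 had a higher and 12 a lower mean. RRM2 and RRM1 encode the subunits of ribonucleotide reductase, which supplies the deoxynucleotides that compete with cytarabine triphosphate. RRM2 had a mean log2 change of -0.36 ± 0.18, lower in all 3 lines, RRM1 one of 0.079 ± 0.06, and DUT, the dUTPase, one of -0.31 ± 0.73. CMPK1, the UMP/CMP kinase that adds the second phosphate to cytarabine, was lower in all 3 knockdown libraries, with 6764 and 4798 in MOLM-14, 4146 and 2131 in NOMO-1, and 5929 and 3462 in SKM-1, a mean log2 change of -0.74 ± 0.23.

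Of 12 topoisomerases and drug-reducing enzymes tested, 4 had a higher and 8 a lower mean. The anthracycline targets TOP2A and TOP2B had mean log2 changes of -0.19 ± 0.22 and -0.35 ± 0.56, and TOP1 one of -0.083 ± 0.18. NQO1, a quinone reductase, was higher in all 3 knockdown libraries, with 319 and 498 in MOLM-14, 219 and 877 in NOMO-1, and 441 and 2243 in SKM-1, a mean log2 change of 1.66 ± 0.90. AKR1C3, a reductase that can act on anthracyclines, differed between lines, with 2.23 and 9.40 in MOLM-14 against 469 and 208 in NOMO-1 (adjusted p 0.0165).

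Of 17 glutathione genes tested, 10 had a higher and 7 a lower mean, with a median log2 change of 0.032. GSTP1, the glutathione transferase abundant in myeloid cells, was higher in all 3 knockdown libraries, with 3120 and 4902 in MOLM-14, 15031 and 21533 in NOMO-1, and 2224 and 4366 in SKM-1, a mean log2 change of 0.71 ± 0.23. It was also lower in MOLM-14 than in NOMO-1 by -2.20 on the log2 scale (adjusted p 0.00726). GPX1 had a mean log2 change of 0.12 ± 0.46 and GSR, glutathione reductase, one of 0.50 ± 0.80. GSTM3 had 3360 and 1015 in SKM-1 and at most 4 reads in any other library, which is also what carried it past the filter, and reads of the GSTM family are uncertain because its copies are near-identical. The vault partners PARP4 and TEP1 had mean log2 changes of 0.14 ± 0.81 and 0.19 ± 0.57, both higher after knockdown in SKM-1 alone, the line where MVP differed most.

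**Figure D5:**
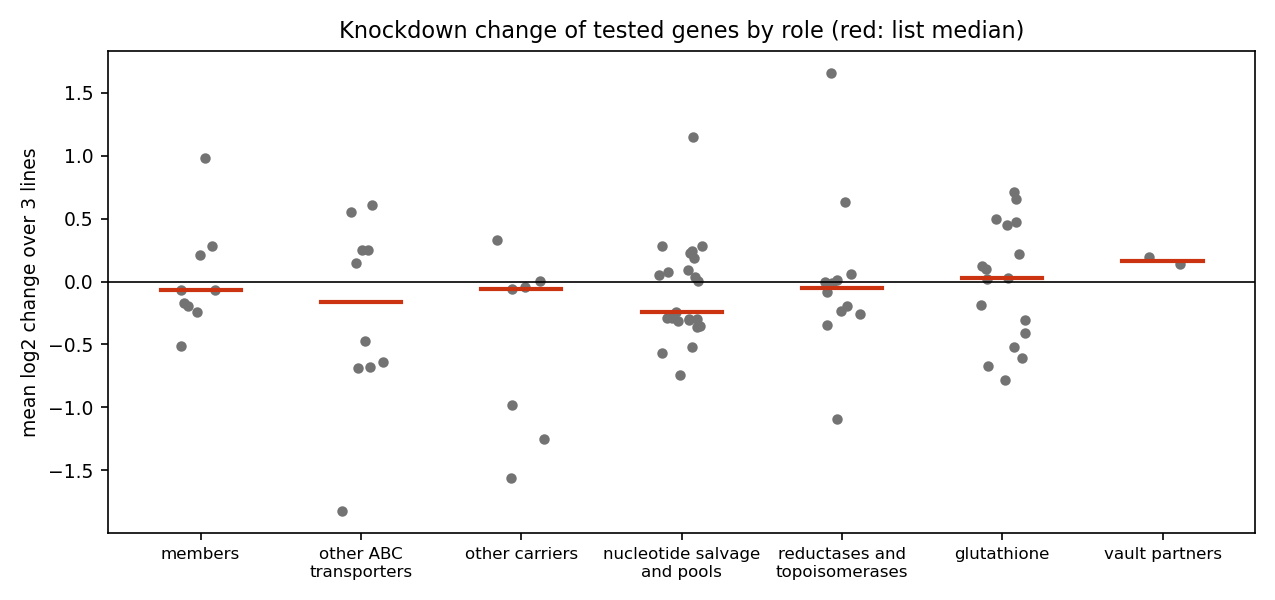
Mean log2 change over the 3 lines of every gene tested, 1 point per gene, grouped by role, with the median of each list in red. Medians lie between -0.25 for nucleotide salvage and 0.17 for the vault partners, and no gene shown was called by limma.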

How the data were processed

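RNA of 3 AML lines was sequenced at 72 h (paired reads of 100 bases, per the series text), 1 library per line and condition. The main deposited values are a signal: reads per gene, scaled by the authors with 1 factor for each library. A second deposited table holds log2 values, an unnamed transformation by the authors of the same reads, and served as an alternative. The submitters' processing notes name STAR, bcl2fastq 1.8.4, DESeq2 1.12.4, HTSeq 0.6.1p1 and build hg19. No source used here gives the annotation or strand setting, so an overlapping or antisense gene cannot be told from its partner, and shared reads of near-identical copies (GSTM genes, ABCC6, NME2) are uncertain.

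Dividing each column by its step gave whole reads for 100% of values (tolerance 0.001), 41916991 to 47688779 per library. These served for exact conditional 95% intervals of ratios, for the floor of 3 reads, and for edgeR 4.0.16 (0 genes called after knockdown) and DESeq2 1.42.0 (43 genes called).

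The test was limma 3.58.1 in R 4.3.3 (two-sided, lmFit and trended eBayes), blocked by cell line and run on log2(normalized count + 1), for 19575 of 34114 genes with a mean of at least 10, Benjamini-Hochberg adjusted over all of them, with calls under 0.05. Such fold changes understate those of low genes. Line contrasts also required 2-fold. The fit has 2 residual and 2.81 prior degrees of freedom, and a line-by-knockdown term would leave no residual degrees of freedom, so differences in response between lines were not tested. Libraries are paired by their line, and across genes their deviations from group means correlated at 0.850, 0.863 and 0.710 within lines and at -0.319 or below between lines. The 3 deviations of a group sum to 0 for each gene, so negative values between lines are partly forced. Separate cultures are not stated, so p-values measure only the spread between these libraries.

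The members and the gene lists were chosen with earlier results of these data known. All members are named, and of each pathway list the 3 genes of highest mean, any gene called after knockdown, and the gene of largest difference in each line contrast if called. Of 143 list entries 138 were found. Exon lengths (GENCODE v29) and promoter windows (RefSeq, GRCh38.p14, 250 bases upstream) come from another build than the counts and served for per-kilobase levels and sequences. Alternatives changed the pseudocount, filter, scaling, variance trend, block, tool or libraries used. 1 marker gene is not reported here.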

Additional observations from a re-analysis of the deposited data

Results flagged for a closer look

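For 5 of the 10 genes, counting intervals of the knockdown over control ratio lay above 1 in one line and below 1 in another. The same held for 30.7% of all genes tested, and such intervals are narrow for genes with many reads. The difference between lines was not tested for any of them, because each line has 1 library per condition. Differences are in log2(normalized count + 1). The widest was CDA, the cytidine deaminase gene, 4.93 higher in SKM-1 than in NOMO-1. SAMHD1 differed by 1.36 between NOMO-1, where it was higher after knockdown, and MOLM-14, where it was lower. ABCC4 differed by 1.01 and SLC29A1 by 0.44 between NOMO-1 (higher) and SKM-1 (lower). NT5C2 differed by 0.86 between MOLM-14 (higher) and NOMO-1 (lower).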

How the results depend on the processing

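In the knockdown comparison, members called stayed at 0 under every alternative run, and 108 of 116 alternative values of single members kept their direction and side of the threshold. DESeq2 called 43 genes in place of 0, and gave CDA a change of -0.068. The fit with no replicate block called 0 genes (141 at an unadjusted p under 0.05) and ended or made no member call. Leaving out 1 line pair at a time turned the sign of 7 uncalled changes: ABCC4 -0.39 to 0.11, ABCG2 -0.35 to 0.25, SLC29A1 -0.15 to 0.075, DCK -0.39 to 0.019, CDA -1.45 to 1.08, NT5C2 -0.38 to 0.046 and SAMHD1 -0.069 to 0.61. Between MOLM-14 and NOMO-1, 1 member was called with pseudocount 8, no filter, a minimum mean of 50, no variance trend or edgeR. Single values were ABCG2 at an adjusted p of 0.0589 with pseudocount 8, and CDA at 0.0636 with no filter, 0.0569 without trend and 0.0600 by edgeR. At a minimum of 50 ABCG2 was not tested, and SLC29A1 had -0.054 under total-count scaling. Between SKM-1 and MOLM-14, 1 member was called with no filter, a minimum of 50 or no trend. MVP was at 0.0634 with no filter, 0.0545 without trend and 0.0537 without the knockdown term, and CDA passed by DESeq2 (3.86e-06) and without that term (0.0362). Between SKM-1 and NOMO-1, 1 member (ABCG2, 0.0494) was called without that term, but it passed the filter only through its SKM-1 libraries. Leaving out 1 library gave 0 to 4884 genes called between MOLM-14 and NOMO-1 (2596 with all), 636 to 5947 between SKM-1 and MOLM-14 (3103) and 0 to 5038 between SKM-1 and NOMO-1 (2684), the 0 arising without either NOMO-1 library. Members called ranged over 0 to 3, 1 to 3 and 0 to 2 in these contrasts. Some line differences not called with all libraries turned sign in these fits. For MOLM-14 minus NOMO-1 they were SLC29A1 -0.040 to 0.19 and SAMHD1 -0.90 to 0.15. For SKM-1 minus MOLM-14 they were ABCC4 -0.54 to 0.38, DCK -0.11 to 0.68, NT5C2 -0.48 to 0.16 and SAMHD1 -0.79 to 0.20. For SKM-1 minus NOMO-1 they were ABCC4 -0.18 to 0.74, DCK -0.75 to 0.035, CDA -4.34 to 0.66 and NT5C2 -0.12 to 0.53. The NOMO-1 ratio of SAMHD1 was 1.03 on the log2 scale under total-count scaling. The causes were not tested. Depth limits ABCB1 in every library, and ABCG2 and CDA in MOLM-14.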

Other observations

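The balance of drug-activating and drug-removing transcripts within each library was read as a ratio of reads per kilobase, with 95% counting intervals. DCK over CDA was 81.0 (39.2 to 202) in the MOLM-14 control and 300.4 (83.0 to 2482) in its knockdown, resting on 7 and 2 CDA reads. In NOMO-1 it was 0.709 (0.666 to 0.754) in the control and 1.92 (1.76 to 2.11) in the knockdown. In SKM-1 it was 14.7 (11.6 to 19.0) in the control and 0.729 (0.674 to 0.790) in the knockdown. The SKM-1 knockdown library thus had a DCK to CDA balance next to that of the NOMO-1 control, while both MOLM-14 libraries had DCK in large excess.

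DCK over SAMHD1 varied much less. It was 1.07 and 1.39 in MOLM-14 control and knockdown, 2.03 and 1.07 in NOMO-1, and 2.59 and 1.28 in SKM-1. Both lines with a control ratio above 2 had a lower ratio in the knockdown library, and MOLM-14 a higher one. Each ratio comes from 1 library, so none has a replicate check. Its size also depends on the exon lengths used, 3227 bases for DCK and 11261 for SAMHD1, which counting intervals do not cover. In reads, SAMHD1 exceeded DCK in every library.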
